A study of Homo sapiens with 4 samples.

Results

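SNARE proteins drive the fusion of vesicles with their target membranes. An R-SNARE on the vesicle, such as a VAMP, zips into a helical bundle with Q-SNAREs of the syntaxin and SNAP families on the target, and the bundle is afterwards taken apart by NSF and its adaptors. VAMP3, also called cellubrevin, is the widely expressed R-SNARE of recycling endosomes, and a close relative of VAMP2, which is best known from synaptic vesicles. The 10 genes described here are the VAMP family members *VAMP1*, *VAMP2*, *VAMP3*, *VAMP4*, *VAMP5* and *VAMP8*, the plasma membrane partners *STX4* and *SNAP23*, the endosomal and Golgi partner *STX6*, and *YKT6*, an R-SNARE of the longin type. They were picked by name from the 40205 genes listed in each library, and *VAMP3* was included because it fell strongly in these same libraries. Its values are therefore a description, with no test.

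RNA was sequenced from 2 libraries of lung cancer cells transfected with a negative control (NC 1 and NC 2) and 2 libraries of the same cells transfected with siRNA against circZFR (si-circZFR 1 and si-circZFR 2), all for 24 h, to learn how the mRNA profile changes once this circular RNA of the *ZFR* gene is silenced. The labels do not say whether the libraries of a group came from separate cultures, so the tests measure the spread between these libraries, which may be technical. Library totals, which were worked back from the RPKM values, ranged from 11040050 to 12816868 reads. The sample labels name H1299, whereas the series description and the article name A549. *AKR1B10*, abundant in A549, was at 1289 to 1701 scaled RPKM in the 4 libraries. Of the other genes taken as markers of A549, *AKR1C1* was at 512 to 696, and *ALDH1A1* had means of 886 in NC and 1228 in si-circZFR. *FGB* and *FGG*, from the same set of markers, were low, at 0.772 to 2.58 and at 2.24 to 5.95. Which of the named lines the libraries came from was not tested. *PTPRC* and *CD3E*, markers of immune cells, were listed at 0 in all 4. Of the other genes taken as markers of cells foreign to the culture, *PECAM1* had 3 reads over the 4 libraries. *COL1A1* was at 0.873 and 0.621 in NC and at 1.33 and 1.89 in si-circZFR, and it did not pass the test described below. None of 5 epithelial and 3 mesenchymal markers passed the test described below, although *CDH1*, E-cadherin, was at 11.4 and 8.64 in NC and at 21.5 and 21.2 in si-circZFR, and the part of such markers in the results was not tested. *ZFR*, which hosts the circle, had 25.9 and 32.3 scaled RPKM in the control replicates, and 5.22 and 4.62 in si-circZFR. It passed the test described below (ratio of means 0.169, FDR = 0.0459 by limma), though not in every alternative setting. By RT-PCR, the article reports that its siRNA left *ZFR* expression without detectable change in A549. The circle itself is not measured by these gene-level values, and the cause of the fall in *ZFR* was not tested.

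The sequences below show the siRNA listed for circZFR and the 3′UTR stretches of the members that hold the 7-base word CTGACTC, which an earlier look at these libraries had found in transcripts lower after silencing. In the siRNA strands, capitals mark the seed, bases 2 to 8. The sense strand is given as listed with its overhang, and the guide strand is the computed complement of its 19 paired bases. In the 30-base stretches, capitals mark the word, together with a following A where there is one. These stretches come from the GENCODE 44 reference transcripts on GRCh38. They lie at chr1:7780134-7780163 and chr1:7781263-7781292, both on the plus strand, for *VAMP3*, and at chr1:180974324-180974353, on the minus strand, for *STX6*.
siRNA listed for circZFR, sense strand: cCAAGCUGgcccuuacguctt
siRNA listed for circZFR, guide strand: gACGUAAGggccagcuugg
VAMP3 3′UTR, base 500: tgtaagcactaCTGACTCtcgctgtattta
VAMP3 3′UTR, base 1629: tctggccgggtCTGACTCAgaaaccttggt
STX6 3′UTR, base 2228: ccattgtagacCTGACTCAggctgaagcta

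Values are RPKM, the reads on a gene divided by its length and by the size of the library, scaled between libraries by trimmed means. Within a group, replicate 1 is given before replicate 2. A log2FC is the si-circZFR mean minus the NC mean of log2(scaled RPKM + 1), which understates the change of low genes. A gene was tested where 2 or more libraries had an RPKM of 1 or above, and it passed at FDR < 0.05 by limma over all 13885 genes tested together with |log2FC| > 1. Of all genes tested, 0.0576% passed, 0.0288% lower and 0.0288% higher. Of the 10 members, 9 were tested and 1 passed, *VAMP3*, from which nothing is read because the same contrast chose it. The other 8 tested members had log2FC values from -0.65 to 0.50 with a median of 0.02, beside a median of -0.0042 over all genes tested. In these bulk samples, fewer transcripts per cell and fewer cells carrying them cannot be told apart.

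**Figure D1:**
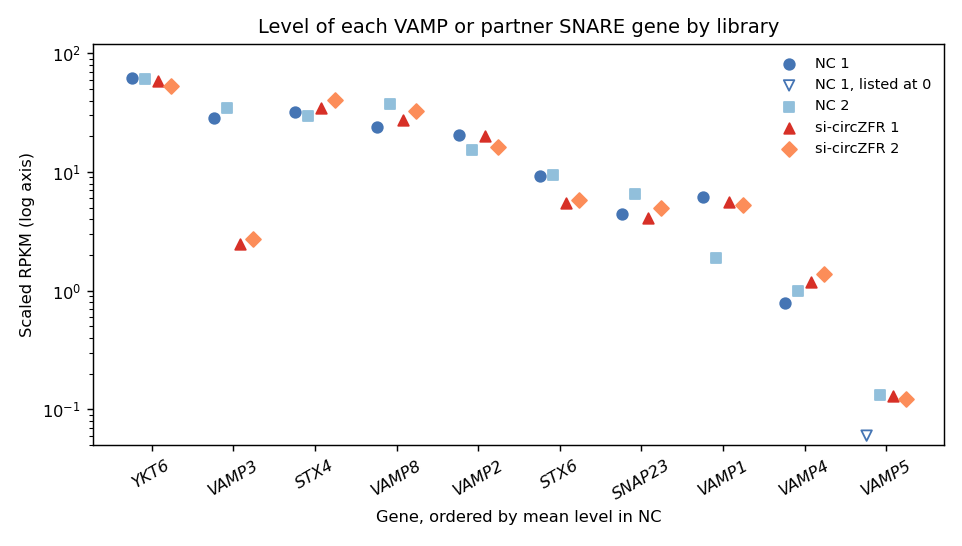
Scaled RPKM (log axis) of the 10 genes in each of the 4 libraries, ordered by mean level in NC; circles and squares are NC libraries, triangles and diamonds si-circZFR libraries, and the open triangle marks a gene listed at 0. *VAMP3* drops from 28.4 and 34.3 to 2.47 and 2.74, the 2 *STX6* points of si-circZFR lie under those of NC, and *VAMP1* is low in NC 2 alone.

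Among the R-SNAREs, *VAMP3* was the second most abundant member in NC and the eighth of 10 after silencing. It was at 28.4 and 34.3 scaled RPKM in NC, on 738 and 864 reads, and at 2.47 and 2.74 in si-circZFR, on 63 and 74 reads. Both si-circZFR libraries were far below both NC libraries, and libraries of a group lay close together. The mean went from 31.4 ± 4.19 to 2.61 ± 0.186 (SD, n = 2 each), a ratio of 0.0831 and a log2FC of -3.16 (standard error 0.17). This was the second lowest log2FC of the 13885 genes. *VAMP3* lies on chromosome 1 from 7771296 to 7781432 (GRCh38, plus strand), and its reference transcript has 5 exons and a 3′UTR of 1787 bases.

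Ratios within a library, which scaling between libraries cannot move, restate the values that chose *VAMP3* and are given as a description. *VAMP3* was at 1.39 and 2.26 times the RPKM of *VAMP2* in NC, and at 0.124 and 0.168 times in si-circZFR. Against *STX4*, a plasma membrane partner, the ratio was 0.889 and 1.16 in NC and 0.0714 and 0.0682 in si-circZFR. *VAMP3* thus passed from the leading pair of VAMP transcripts to a minor one.

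*VAMP2*, the closest relative, stayed within the spread of its replicates. It was at 20.4 and 15.2 scaled RPKM in NC and at 20.0 and 16.3 in si-circZFR, and the groups overlapped. Its log2FC of 0.03 had a 95% interval from -0.48 to 0.54 (FDR = 0.94 by limma). The interval leaves room for moderate changes either way, but not for one of the size seen in *VAMP3*. Its direction turned when NC 2 or si-circZFR 1 was left out.

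*VAMP8*, which serves late endosomes and regulated secretion, was as abundant as *VAMP3* in NC. It was at 23.9 and 37.4 scaled RPKM in NC and at 27.7 and 32.4 in si-circZFR. Both si-circZFR values lay between the NC values, and the log2FC was 2e-04, with an interval from -0.61 to 0.61 (FDR = 0.9997 by limma). The NC libraries differed by 0.62 on the log2 scale. Across the genes tested, the difference NC 2 minus NC 1 was lower for longer genes (Spearman's rho -0.336), and *VAMP8* has a short transcript of 679 bases. After correction for gene length the log2FC was 0.34 (FDR = 0.324 by limma), and it was -0.32 without NC 1.

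*VAMP1*, a relative of *VAMP2* known from neurons and neuromuscular junctions, differed mainly between the control libraries. It was at 6.22 and 1.87 scaled RPKM in NC, on 230 and 67 reads, and at 5.60 and 5.25 in si-circZFR, on 203 and 202 reads. NC 2 stood alone, and NC 1 was above both si-circZFR libraries. The gap between the NC libraries, -1.33 on the log2 scale, was larger in size than that of 98.2% of the genes tested. The log2FC of 0.50, with a standard error of 0.42 and FDR = 0.52 by limma, became 1.16 with FDR = 0.0358 when NC 1 was left out, and -0.17 when NC 2 was left out. The sign of this value therefore depended on which control library was kept. The exons of *VAMP1* share 12.4% of their bases with *TAPBPL* on the other strand, and the use of strand in counting was not given in the sources used here.

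*VAMP4*, an R-SNARE of the trans-Golgi network, and *VAMP5*, known from muscle, were scarce. *VAMP4* was at 0.79 and 1.002 scaled RPKM in NC and at 1.18 and 1.39 in si-circZFR, on 48 to 88 reads a library. The si-circZFR libraries were above the NC libraries, but the gene entered the test only through them, and its log2FC of 0.27 did not pass (FDR = 0.466 by limma). *VAMP5* was the member that was not tested, with 0, 1, 1 and 1 reads. A count of 0 in NC 1 allows up to 3 reads there, or 0.377 RPKM for counting error alone, so a difference in *VAMP5* was not detectable at this depth.

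**Figure D2:**
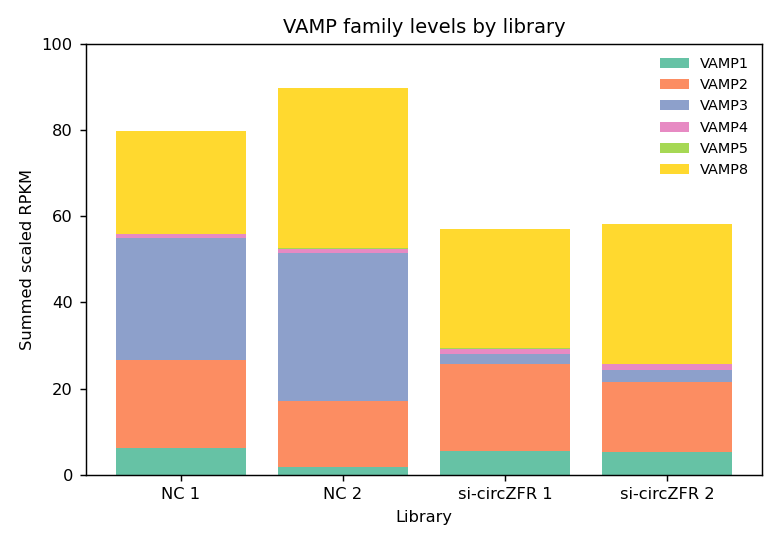
Scaled RPKM of the 6 VAMP family genes stacked for each library, with the full bar giving their sum. The sum is 79.8 and 89.9 in NC and 57.1 and 58.2 in si-circZFR, and the *VAMP3* band nearly disappears while the bands of *VAMP2* and *VAMP8* remain.

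The make-up of the family shifted accordingly. *VAMP3* held 35.6% and 38.2% of the summed level of the 6 VAMP genes in NC, and 4.33% and 4.71% in si-circZFR. The sum itself was 79.8 and 89.9 scaled RPKM in NC and 57.1 and 58.2 in si-circZFR. *VAMP8* was the largest part in both si-circZFR libraries, with 48.5% and 55.6%. In NC it held 30% and 41.6%, and it was already the largest part in NC 2. No library of one group overlapped the other in either share, but in level the groups lay apart for 56.0% of all genes tested. The *VAMP3* and *VAMP8* shares are tied, because one cannot fall without others growing. The log2FC of *VAMP8* itself was 2e-04. These shares and sums restate the values that chose *VAMP3* and are given as a description.

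*YKT6*, which carries a lipid anchor in place of a transmembrane segment and works between the endoplasmic reticulum, Golgi and autophagosomes, was the most abundant member. It was at 62.0 and 61.2 scaled RPKM in NC and at 58.8 and 53.4 in si-circZFR. All si-circZFR values were below the NC values, but the log2FC of -0.13 did not pass (standard error 0.17, FDR = 0.664 by limma). With the RPKM left as deposited, the value was 0.049, and the median of all genes was then 0.15. With 1811 to 2022 reads a library, *YKT6* is also the member whose level is known most firmly from counting.

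Among the plasma membrane Q-SNAREs, *STX4*, which receives *VAMP2* and *VAMP3* vesicles, was at 32.0 and 29.5 scaled RPKM in NC and at 34.7 and 40.1 in si-circZFR. Both si-circZFR libraries were higher, and the log2FC of 0.27 (standard error 0.17) did not pass (FDR = 0.386 by limma). *SNAP23*, the widely expressed relative of *SNAP25* that pairs with *STX4*, was at 4.46 and 6.50 in NC and at 4.13 and 4.94 in si-circZFR. Its groups overlapped, with a log2FC of -0.21 (FDR = 0.586 by limma). In the reference, 60.3% of the exon bases of *SNAP23* are shared with a transcript on the other strand, ENSG00000261684, which makes its count uncertain where strand was not used.

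*STX6*, a Q-SNARE between endosomes and the trans-Golgi network, had the lowest log2FC among the members after *VAMP3*. It was at 9.33 and 9.36 in NC, on 499 and 485 reads, and at 5.44 and 5.77 in si-circZFR, on 285 and 321 reads. The NC libraries were almost equal, and both si-circZFR libraries were lower. The mean went from 9.35 ± 0.0231 to 5.61 ± 0.233 (SD, n = 2 each), a ratio of 0.60 and a log2FC of -0.65 (standard error 0.15). This did not pass over all genes (FDR = 0.111 by limma). The exons of *STX6* share 7.6% of their bases with ENSG00000243155 on the same strand. Within libraries, *STX6* was at 0.151 and 0.153 times the RPKM of *YKT6* in NC, and at 0.0925 and 0.108 times in si-circZFR. The log2FC remained negative in all 15 alternative settings, from -0.74 to -0.48, with FDR from 0.0638 to 0.517.

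Groups that do not overlap were common in these data. Both si-circZFR libraries lay below both NC libraries for 28.7% of all genes tested and above both for 27.3%. Of the 9 members tested, 3 lay below (*VAMP3*, *STX6* and *YKT6*) and 2 above (*VAMP4* and *STX4*). The places of *VAMP3* and *VAMP4* follow from selection. *VAMP3* was chosen for its fall, and *VAMP4* entered the test only through the si-circZFR libraries. Of the genes tested, 21.5% had an unadjusted p under 0.05, and besides *VAMP3* 1 member did, *STX6*.

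**Figure D3:**
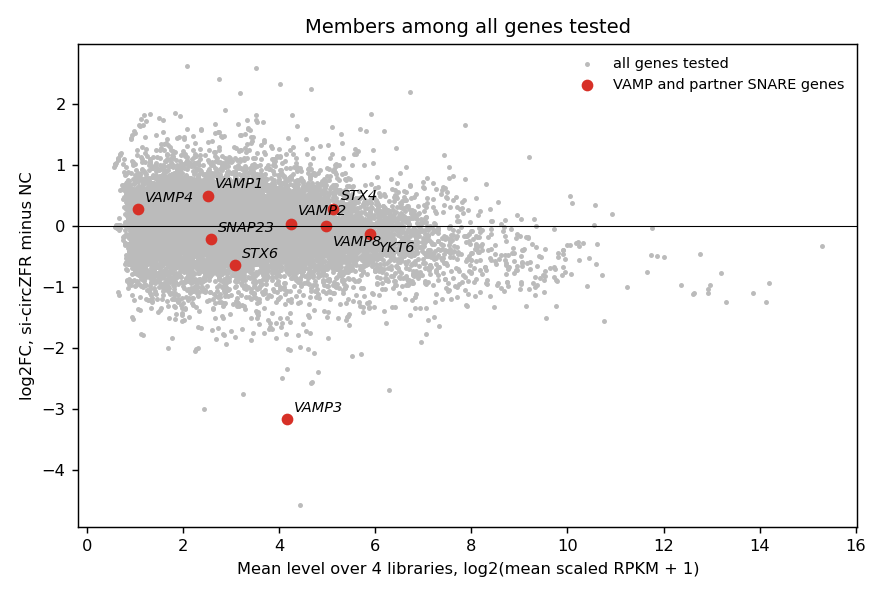
The log2FC (si-circZFR minus NC) of all 13885 genes tested against their mean level, with the 9 tested members in red. *VAMP3* lies at -3.16, the second lowest value of all, *STX6* at -0.65 near the lower side of the cloud, and the other members between -0.21 and 0.50.

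In NC, the order of the members by mean level was *YKT6* (61.6 scaled RPKM), *VAMP3* (31.4), *STX4* (30.7), *VAMP8* (30.7), *VAMP2* (17.8), *STX6* (9.35), *SNAP23* (5.48), *VAMP1* (4.04), *VAMP4* (0.896) and *VAMP5* (0.0659). The ranges of the NC libraries overlapped between *VAMP3* and *STX4*, between *STX4* and *VAMP8*, and between *SNAP23* and *VAMP1*, so these neighbours did not differ beyond their spread. In si-circZFR *YKT6*, *SNAP23*, *VAMP4* and *VAMP5* held the same places, and *VAMP3* moved to a place just below *SNAP23*.

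The members that hold the word CTGACTC in the 3′UTR are *VAMP3*, at 2 places, and *STX6*, at 1 place. In the second *VAMP3* match and in the *STX6* match, the word is followed by A. *VAMP4* and *YKT6* hold only its last 6 bases, each at 2 places, and the other 6 members hold neither. Of the 10350 tested genes with a reference 3′UTR, 11.3% hold the 7 bases and 1.39% hold them at 2 or more places. The 7 bases followed by A were held by 3.67% of these genes. The word was searched on the transcript strand only, a match overlaps the shorter words within it, and a longer 3′UTR offers more places. A match is a description of the reference and does not show that anything binds there.

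**Figure D4:**
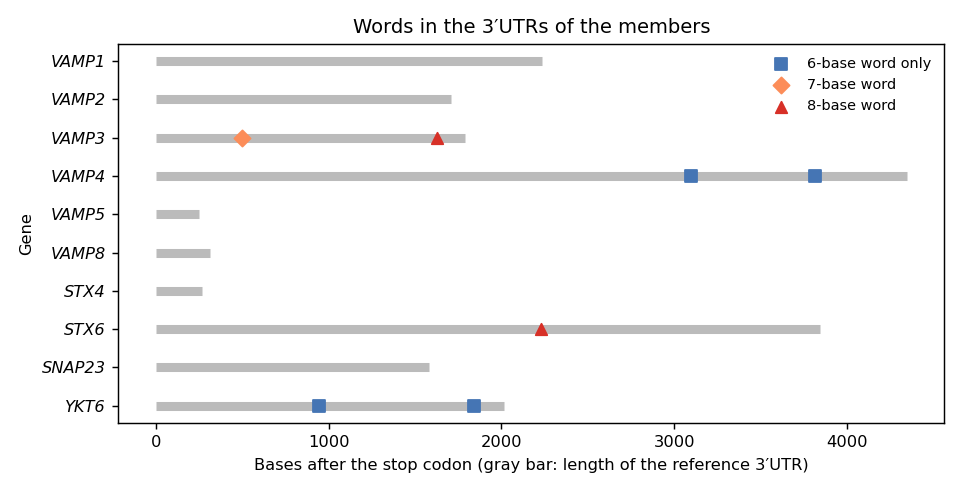
Position of the words in the reference 3′UTR of each member, in bases after the stop codon; gray bars give the 3′UTR length, squares the 6 bases alone, diamonds the 7 bases, and triangles the 7 bases followed by A. The 7-base word appears in *VAMP3* at bases 500 and 1629 and in *STX6* at base 2228, and in no other member.

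The siRNA shown above is the one the article lists as si-circZFR, and the labels do not say that it was the one used for these libraries. No member holds the 7-base match to the seed of the guide strand, CTTACGT, which 2.72% of the 10350 genes hold. The match to the seed of the sense strand, CAGCTTG, lies at 2 places in the 3′UTR of *STX6* and in no other member. Of the genes, 14.6% hold it and 2.29% hold it at 2 or more places. Along the whole *VAMP3* transcript, the 19-base guide strand had at least 7 mismatches at every position, which is also the median over the 10350 genes. Among the members this lowest number of mismatches ran from 6 to 8.

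The remaining SNAREs and their regulators were taken from a list of 44 genes, of which 39 were tested. None passed by limma, and 4 lower and 5 higher had an unadjusted p under 0.05, beside 11.8% and 9.69% of all genes tested. Limma-voom on recovered reads passed 1 of the 39, beside 2.01% of all genes in that fit. The median log2FC was 0.07, beside -0.0042 over all genes. *VAMP7*, a longin of lysosome fusion, and *SEC22B*, of traffic between the endoplasmic reticulum and Golgi, were listed at 0 in all 4 libraries. A gene absent from the cells and a gene missed by the counting cannot be told apart from these zeros.

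*STX12*, the Q-SNARE of early and recycling endosomes, which is known to form complexes with VAMP3, had the smallest p of the list. It was at 1.90 and 2.16 scaled RPKM in NC, on 69 and 76 reads, and at 5.74 and 6.73 in si-circZFR, on 204 and 254 reads. Both si-circZFR libraries were well above both NC libraries. The mean ratio was 3.07 and the log2FC was 1.25 (standard error 0.17), at the 99.3rd percentile of all genes tested, and it did not pass (FDR = 0.0794 by limma). It passed when the filter was a CPM above 1 (FDR = 0.0464), by limma-voom on the recovered reads (FDR = 0.0276) and without NC 1 (FDR = 0.0369), settings that passed 1.08%, 2.01% and 7.21% of all genes in turn. Over all alternatives the FDR of *STX12* ran from 0.0276 to 0.281. In NC the RPKM of *STX12* was 0.204 and 0.231 times that of *STX6*, and in si-circZFR it was 1.06 and 1.17 times. *STX12* was named for its small p, and *STX6* had the lowest log2FC among the members after *VAMP3*. This ratio restates those values and is a description.

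*STX8*, a Q-SNARE of late endosomes, had the lowest log2FC of this list. It was at 33.9 and 35.8 in NC and at 21.5 and 16.8 in si-circZFR, with both si-circZFR libraries lower. The log2FC, -0.84 with a standard error of 0.18, did not pass (FDR = 0.0994 by limma). *BET1*, of transport into the Golgi, and *STX3*, the apical syntaxin of epithelia, had log2FC values of -0.69 and -0.51 (FDR = 0.167 and 0.174 by limma). Both hold the word CTGACTC once in the 3′UTR. The other holders in the list, *SNAP25* and *STXBP4*, were at 0.07 and 0.06. Thus 2 of the 4 were negative, beside 13 of the 35 list genes without it. The word was found in transcripts lower in these same libraries, so this count supports nothing about it.

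**Figure D5:**
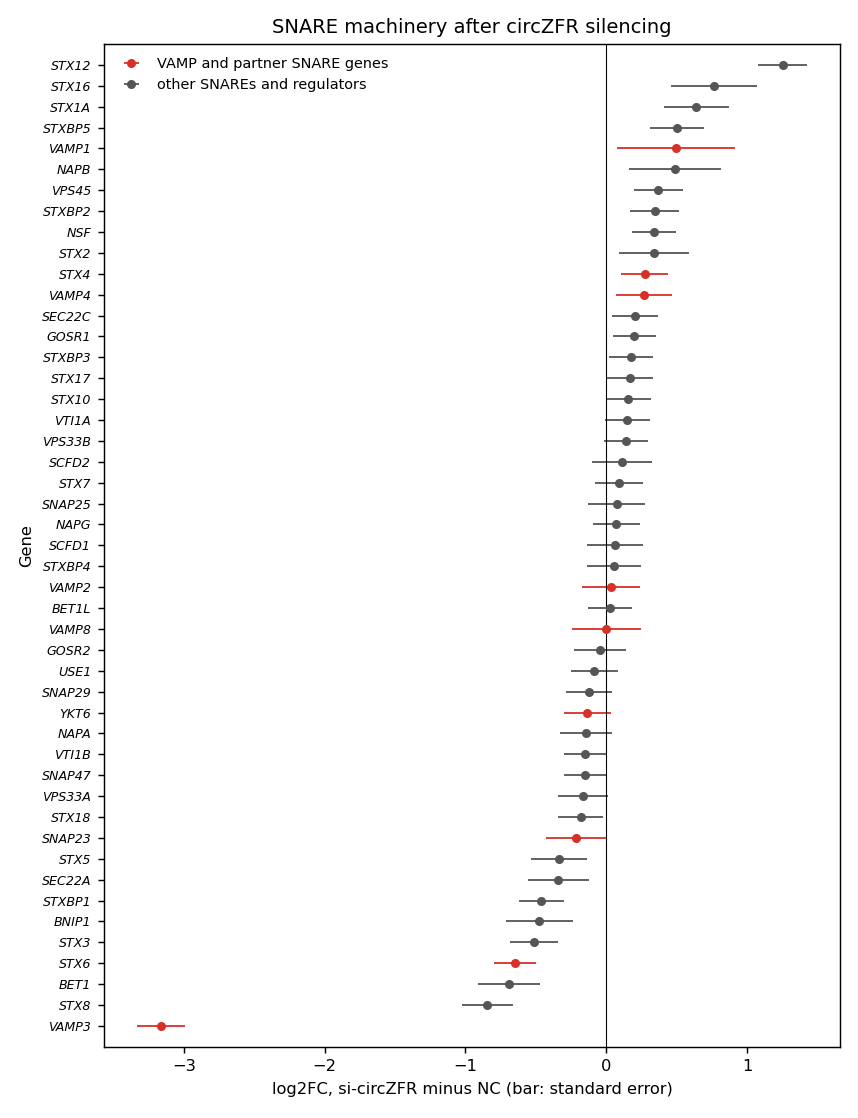
The log2FC (si-circZFR minus NC) with its standard error for the 9 tested members (red) and the tested genes of the SNARE machinery list (gray), save 1 that is not reported here, in order of value. *VAMP3* at -3.16 stands apart from *STX8* at -0.84, the next lowest, and *STX12* is highest at 1.25.

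Across the 10350 genes, the 1174 holders of the word had a median log2FC of -0.06, and the others 0.03. With the following A, the medians were -0.12 for 380 genes and 0.02 for the rest. The word had been found in transcripts that were lower in these same libraries. These medians, and the counts of list genes holding it, therefore restate how it was chosen. They support nothing about *VAMP3*, *STX6* or the list genes.

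A second list covered 40 genes of endosomes and recycling, the compartment that VAMP3 serves, and all 40 were tested. None passed by limma or by limma-voom. An unadjusted p under 0.05 was found for 3 lower and 3 higher, beside 11.8% and 9.69% of all genes tested. The median log2FC was -0.11, beside -0.0042 over all genes. In this list, 4 of 6 holders of CTGACTC were negative, beside 20 of 34 genes without it (median log2FC -0.04 and -0.13). Transferrin receptor, *TFRC*, a cargo whose recycling uses VAMP3, was at 51.6 and 57.5 in NC and at 51.8 and 62.6 in si-circZFR (log2FC 0.06). *PICALM*, the clathrin adaptor that sorts VAMP2, VAMP3 and VAMP8, was at 35.3 and 38.4 in NC and at 35.6 and 32.8 in si-circZFR (log2FC -0.10). These 2 genes were named after their values were seen, for what they are known to do.

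The smallest p in this list belonged to *EXOC5*, a subunit of the exocyst that tethers vesicles to the plasma membrane, with a log2FC of 0.79 (FDR = 0.122 by limma). *EXOC7*, another exocyst subunit, was at 0.52 (FDR = 0.179 by limma). *RAB5A*, a GTPase of early endosomes, was at 0.58 (FDR = 0.158 by limma), and *RAB7A*, that of late endosomes, was at -0.65 (FDR = 0.15 by limma). *SCAMP2*, a carrier membrane protein of recycling vesicles, was at -0.54 (FDR = 0.201 by limma). These 5 genes were named for their small p, so their groups were bound to lie apart. Over the whole list of 40, the groups lay apart with si-circZFR lower for 12 and higher for 11, and they lay apart for 56.0% of all genes tested.

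The 5 genes whose 4 log2 values, after centring, lay nearest to those of *VAMP3* were *TMEM185AP1* (Euclidean distance 0.334), *MDH1* (0.516), *RPL41P5* (0.829), *ZFR* (0.841) and *RPL7AP20* (1.16). None is a SNARE gene. They include pseudogenes, and *TMEM185AP1* rested on 39 reads over the 4 libraries and *RPL7AP20* on 91. *MDH1* was at 115.8 and 151.4 scaled RPKM in NC and at 17.0 and 22.6 in si-circZFR.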

How the data were processed

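Total RNA of 4 libraries (24 h after transfection) was sequenced on the Ion Proton, and the authors deposited 1 RPKM value per gene and library. The article gives hg38 and the submitters' processing notes give GRCh37. The aligner, counter, annotation and use of strand are not given in the sources used here, and coordinates here are GRCh38 (GENCODE 44).

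RPKM was scaled by trimmed means without weights, trimming 30% of the log ratios and 5% of the mean levels. Genes that reached an RPKM of 1 in 2 or more libraries were tested by limma on log2(scaled RPKM + 1). The prior variance followed the level of a gene (median prior degrees of freedom 3.82), and p was adjusted by Benjamini-Hochberg over all genes. This test for normalized values took the place of the article's test for counts, and it was tested on simulated data. The simulation gave all genes the same setting of spread. Its outcome is not reported here, and nothing is drawn from it. The members and gene lists were chosen with earlier results of these data known.

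Library totals were worked back from the RPKM of microRNA hairpins of known length. The total most often found was kept, with 33 to 65 hairpins a library taken to hold 1 read. Read numbers were then worked back from RPKM through the gene length that turns all 4 values of a gene into whole numbers (tolerance 0.02). This succeeded for 99.97% of the genes above 0, and for a gene with few reads the recovered number may be a divisor of the true one. Intervals were built from the standard errors of limma, so they cover the spread between these libraries. Floors cover counting error only. Recovered lengths of the members were 94.3% to 116.7% of their reference transcripts.

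Beside the 10 members, the rule for named genes took *ZFR*, the 5 genes with the smallest p in each list, list genes that passed, the 5 genes nearest to *VAMP3* and cell markers, of which some are not reported here. A planned comparison of protein sequences was not made. The 15 alternatives covered scaling, filter, pseudocount (0.1 and 0.5), prior variance, recovered reads, gene length, the replicate number and leaving out each library. R 4.3.3, limma 3.58.1, Python 3.11.15, numpy 2.4.6, pandas 2.3.3 and matplotlib 3.10.9 were used.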

Additional observations from a re-analysis of the deposited data

How the results depend on the processing

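With 2 libraries in each group, calls depended on the settings. Instead of 8 genes (4 lower, 4 higher), limma passed 159 genes (100 lower, 59 higher) and 1 gene of the SNARE machinery list with a filter of CPM above 1, and limma-voom passed 279 (151 lower, 128 higher) and 1. With a pseudocount of 0.1 or 0.5, 2 passed (1 lower, 1 higher), and after correction for gene length 15 (8 lower, 7 higher). No gene or member passed without a filter (0, with 3652 at an unadjusted p under 0.05) or without a trend in the prior variance (0, with 2977). Leaving out 1 library gave 0 to 975 genes (0 lower without NC 2 to 471 lower without NC 1, and 0 to 504 higher), 0 to 2 members and 0 to 3 genes of the SNARE machinery list. At an unadjusted p under 0.05 it gave 2 to 12 genes of that list and 0 to 10 of the recycling endosome list. *VAMP3* did not pass without NC 2, and *VAMP4* had no value without either si-circZFR library, being then under the filter. Without NC 1, the 2 members were *VAMP3* and *VAMP1*, and the 3 list genes included *STX12* and *STX16*.

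With the replicate number as a block, 17 genes passed (11 lower), and no call of a member changed. Deviations of same-numbered libraries correlated at 0.0697 across genes, so the libraries were taken to share only a number. *VAMP3* was between -3.57 and -3.0 in all 15 alternatives. Direction turned for *YKT6* as deposited (0.049) and for *VAMP8* by median scaling (-0.0021). Leaving out 1 library turned *VAMP8* (-0.32 without NC 1 to 0.31 without NC 2, and -0.11 without si-circZFR 2), *VAMP2* (-0.17 without NC 2 to 0.22 without NC 1, and -0.11 without si-circZFR 1), *VAMP1* (-0.17 without NC 2 to 1.16 without NC 1) and *SNAP23* (-0.45 without NC 1 to 0.015 without NC 2). Of these values, 1 passed, *VAMP1* at 1.16. The causes were not tested.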

Other observations

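Syntaxins and SNAP proteins usually associated with neurons were measured in these lung cancer cells. *SNAP25* was at 5.76 and 5.18 scaled RPKM in NC and at 6.91 and 4.86 in si-circZFR, a level close to that of its widely expressed relative *SNAP23* (4.13 to 6.50). *STX1A*, which was picked after its values were seen, was at 28.5 and 18.5 in NC and at 36.2 and 36.5 in si-circZFR, with a log2FC of 0.64 (FDR = 0.197 by limma). *SYT1*, the calcium sensor of synaptic vesicles, was at 0.404 and 0.218 in NC and at 0.449 and 0.490 in si-circZFR, below the level at which genes were tested.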
